A study of Mus musculus with 7 samples.

Results

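Glutamate released by neurons is cleared by sodium-coupled transporters of the Slc1 family, and in astrocytes the captured glutamate is either turned into glutamine by glutamine synthetase or fed into the citric acid cycle through glutamate dehydrogenase. The glutamine leaves the astrocyte and is taken up by neurons, which make glutamate from it again, and this exchange is known as the glutamate-glutamine cycle. Radial glia, the stem cells of the embryonic brain, already carry Slc1a3, whereas Slc1a2 is known as a transporter of maturing and mature astrocytes. Described here are 7 genes of this system in HopX-positive cells of the mouse brain at 3 stages. They are the glutamate transporter genes Slc1a1, Slc1a2 and Slc1a3, the neutral amino acid carrier genes Slc1a4 and Slc1a5, the glutamine synthetase gene Glul and the glutamate dehydrogenase gene Glud1. They were taken by name from the 24978 rows of the table, 1 row each, and all 7 passed the filter on low values.

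RNA-seq was carried out on cells of C57BL/6 mice that had been isolated by fluorescence-activated cell sorting as positive for HopX, an atypical homeodomain protein of radial glia, quiescent neural stem cells and astrocytes. The 7 libraries were 2 samples of embryonic day 15 (E15), 2 of postnatal day 3 (P3, numbered 1 and 3) and 3 of adult brain, and no treatment, genotype or adult age was given in the labels. The sources used here give no brain region, no gate and no way in which HopX was detected, so stage and any difference in region cannot be told apart. The labels do not tie replicates to separate animals, and the spread that the p-values rest on may be technical. Values are TPM, that is, transcript levels per length scaled to a fixed total, which keeps no record of depth. A lower level in such sorted bulk samples can mean fewer cells with the transcript or less transcript per cell, and the 2 cannot be told apart.

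The labels call the sorted cells neural progenitor cells. The summed TPM of 7 radial glia markers was 6037 and 5166 at E15, then 22460 and 14630 at P3, then 2264, 2705 and 2303 in the adult, mostly from the lipid carrier gene Fabp7. Of the other radial glia markers Pax6, Hes5, Hes1, Vim and Nes were lower in both P3 libraries than in both E15 libraries, with a call for Pax6 (limma, log2 -1.01, Benjamini-Hochberg adjusted p = 0.0228), and Sox2 was higher. Over the same libraries 8 astrocyte markers summed to 869 and 699.6, to 4342 and 2925, and to 12490, 11950 and 10790 TPM. In each adult library the astrocyte sum was above the radial glia sum, and none of the 8 astrocyte markers was at 0 in all libraries. Aldoc made up most of the astrocyte sum in every library (661.7 and 509.6 TPM at E15, and 9079, 8950 and 7925 TPM in the adult). From P3 to the adult Gja1, Aldoc, S100b and Ntsr2 were called higher. Aqp4, Aldh1l1, Sox9 and Gfap had no call there (log2 -0.14, 0.11, 0.495 and -1.17). Neuron markers (8 genes) summed to 1035 and 1232 TPM at E15, then to 90.7 and 579 TPM at P3, then to between 72.0 and 203 TPM in the adult. The neuron markers did not move as 1 group, since Snap25 and Syt1 rose from P3 to the adult (log2 1.97 and 1.89) while Dcx fell, and Snap25 made up 140.4 TPM of the sum in Adult replicate 1. Mature oligodendrocyte markers (8 genes) reached 696 and 475 TPM in Adult replicates 1 and 3 against 81.7 TPM in replicate 2, and microglia markers (8 genes) summed to at most 3.51 TPM at E15 and to between 312 and 404 TPM in the adult. Ependymal markers (5 genes) summed to at most 16.2 TPM at E15, to 418 and 289 TPM at P3 and to between 205 and 282 TPM in the adult. Most of that adult sum was Rarres2 (177 to 258 TPM), which rose from P3, while Tmem212, Dynlrb2 and Ccdc153 fell (log2 -5.67, -3.12 and -2.93) and Foxj1 was below 1 TPM in every library. Red blood cell markers (3 genes) summed to 3875 TPM in E15 replicate 1 and to at most 44.5 TPM elsewhere. All 14 calls made below for the 7 genes held without E15 replicate 1 and without Adult replicates 1 and 3 together. The part of the other cell types in the results was not tested.

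The promoters of 4 members whose transcripts rose from E15 to the adult are shown because the same 4 genes carry the main result. Each is the 250 bases before the RefSeq start site on GRCm38.p6, 5′ to 3′ on the gene's strand. Capitals mark matches on either strand to the NFI half-site TTGGC, the CCAAT box CCAAT, the GC box GGGCGG or the TATA box TATAAA.
Slc1a3, chr15:8710808-8711057, minus strand: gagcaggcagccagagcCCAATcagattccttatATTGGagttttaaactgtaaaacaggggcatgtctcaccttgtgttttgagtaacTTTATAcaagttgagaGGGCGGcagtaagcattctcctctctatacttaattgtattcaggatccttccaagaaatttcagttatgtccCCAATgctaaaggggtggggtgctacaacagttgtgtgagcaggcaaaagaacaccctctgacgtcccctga
Slc1a2, chr2:102706188-102706437, plus strand: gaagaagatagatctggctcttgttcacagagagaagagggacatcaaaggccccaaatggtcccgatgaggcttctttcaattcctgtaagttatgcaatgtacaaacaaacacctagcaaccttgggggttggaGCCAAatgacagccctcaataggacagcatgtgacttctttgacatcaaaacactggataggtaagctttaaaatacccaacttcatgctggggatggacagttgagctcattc
Glul, chr1:153899679-153899928, plus strand: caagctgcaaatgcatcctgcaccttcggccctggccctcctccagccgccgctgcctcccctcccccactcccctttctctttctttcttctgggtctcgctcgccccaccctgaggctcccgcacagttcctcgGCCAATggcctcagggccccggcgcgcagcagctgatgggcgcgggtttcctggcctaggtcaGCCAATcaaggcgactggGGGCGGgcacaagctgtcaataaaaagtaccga
Glud1, chr14:34310477-34310726, plus strand: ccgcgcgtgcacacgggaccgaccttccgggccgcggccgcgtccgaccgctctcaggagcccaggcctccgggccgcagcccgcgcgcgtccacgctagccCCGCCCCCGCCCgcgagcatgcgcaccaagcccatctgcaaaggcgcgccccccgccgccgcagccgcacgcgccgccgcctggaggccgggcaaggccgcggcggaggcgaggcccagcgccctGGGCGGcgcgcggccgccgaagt
The Slc1a3 window holds 3 CCAAT boxes, 1 GC box and 1 TATA box and is 44.8% GC. The Slc1a2 window holds 1 NFI half-site and none of the other letters, and it precedes an internal start that lies 47779 bases downstream of the gene's first annotated start. The Glul window holds 2 copies of GCCAAT, in which an NFI half-site and a CCAAT box overlap, and 1 GC box. The Glud1 window is 82.0% GC and holds 3 GC boxes and no match to the other motifs. Of 32851 promoter windows of the same length, 41.51% hold an NFI half-site, 33.85% a CCAAT box, 32.74% a GC box and 12.37% a TATA box. No motif was found in all 4 windows. RefSeq windows were found for 6 of the 7 members, Slc1a5 being the exception.

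Slc1a3, Slc1a2, Glul and Glud1, which together take up and convert glutamate in astrocytes, rose strongly from E15 to P3, and the first 3 rose again from P3 to the adult. Slc1a4 rose once, from E15 to P3. Slc1a5 ended lower in the adult than at E15, and Slc1a1 stayed low, at 0.448 to 7.93 TPM, with no call. All changes are log2 differences of TPM + 1 and were tested in limma over 15931 genes, with a call at a Benjamini-Hochberg adjusted p under 0.05.

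**Figure D1:**
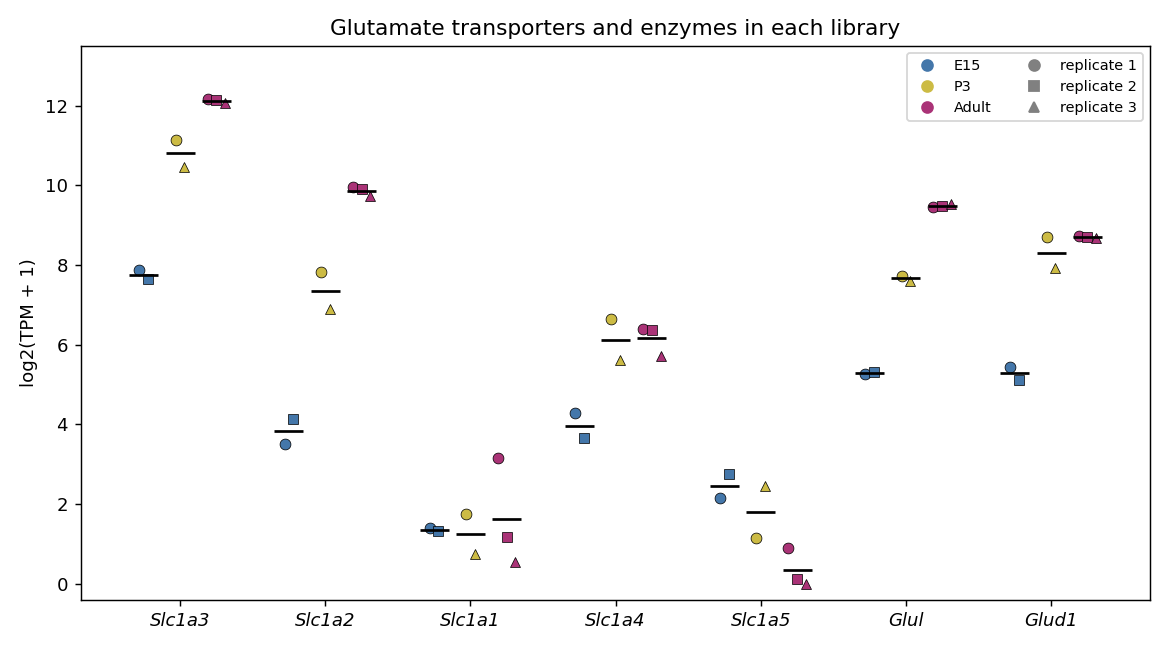
Level of each of the 7 genes in each of the 7 libraries, as log2(TPM + 1), with 1 point per library coloured by stage. Slc1a3 is the most abundant member in every library, and Slc1a2, Slc1a3 and Glul show 3 separate levels in the order E15, P3, adult.

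Slc1a3 encodes GLAST, the glutamate transporter of radial glia and astrocytes. Its level was 233.7 and 199.9 TPM at E15, rising to 2243 and 1419 TPM at P3 and to 4570, 4498 and 4282 TPM in adult cells. The stages did not overlap, and within the library Slc1a3 moved from rank 773 and 878 at E15 to rank 44 and 94 at P3 and rank 17, 19 and 21 in the adult. The mean rose 8.45-fold from E15 to P3 (217 ± 23.9 to 1831 ± 582 TPM, SD, n = 2 each), or log2 3.04 (limma SE 0.20, Benjamini-Hochberg adjusted p = 0.000168). It rose another 2.43-fold to 4450 ± 150 TPM in the adult (SD, n = 3), or log2 1.32 (limma SE 0.18, Benjamini-Hochberg adjusted p = 0.00216). From E15 to the adult the rise was 20.5-fold, or 4.36 on the log2 scale (SE 0.18, adjusted p = 3.44e-06).

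Slc1a2 encodes GLT-1, which carries most glutamate uptake in the adult forebrain. It started far lower than Slc1a3, at 10.4 and 16.7 TPM at E15, then reached 224.6 and 117.3 TPM at P3, then reached 989.2, 967.0 and 848.2 TPM in the adult. The stages again did not overlap. Its rank went from 7687 and 6222 at E15 to 803 and 1467 at P3 and to 132, 140 and 169 in the adult. The fold change of the Slc1a2 means, the largest of the 7 genes, was 12.6 from E15 to P3 (log2 3.52, limma SE 0.32, Benjamini-Hochberg adjusted p = 0.000643). A further 5.47-fold followed from P3 to the adult (log2 2.52, limma SE 0.29, Benjamini-Hochberg adjusted p = 0.00103). Over the whole interval the mean went from 13.6 ± 4.45 to 935 ± 75.8 TPM (SD, n = 2 and 3), which is 68.9-fold (log2 6.04, SE 0.29, adjusted p = 5.65e-06). An exon of Gm13872 on the opposite strand shares 189 of the 13133 exon bases of Slc1a2.

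Slc1a1 encodes EAAC1, the glutamate transporter found mainly on neurons. It was at 1.62 and 1.51 TPM at E15, then 2.37 and 0.674 TPM at P3, then 7.93, 1.25 and 0.448 TPM in the adult, so the stages overlapped and 1 adult library held the highest value. No comparison passed in limma. The 95% confidence interval of the log2 change was -1.94 to 1.72 from E15 to P3, -1.30 to 2.05 from P3 to the adult and -1.41 to 1.94 from E15 to the adult (Benjamini-Hochberg adjusted p = 0.953, 0.758 and 0.802), so these libraries bound its change only loosely. Of the 8257 exon bases of Slc1a1, 2631 are shared with 4430402I18Rik on the opposite strand, which was at 7.05 and 6.28, 1.26 and 4.92, and 6.03, 19.3 and 7.42 TPM. The sources used here do not say whether counting used strand, so it is unknown whether reads over the shared bases were kept apart.

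Slc1a4 encodes ASCT1, a carrier of serine, alanine and other neutral amino acids, which in brain is found on astrocytes and on neurons. It was at 18.5 and 11.6 TPM at E15, then 98.8 and 48.1 TPM at P3, then 83.1, 82.0 and 51.2 TPM in the adult. Both P3 libraries and all adult libraries lay above E15, while P3 and adult overlapped. The rise of the mean from E15 to P3 was 4.88-fold (log2 2.16, limma SE 0.40, Benjamini-Hochberg adjusted p = 0.0173), and leaving out E15 replicate 2 or P3 replicate 1 ended the call (log2 1.85 and 1.65, adjusted p = 0.135 and 0.162). The call was also lost with no filter (adjusted p = 0.0682) and with E15 and P3 fitted alone (adjusted p = 0.0689). From P3 to the adult the log2 difference was 0.03 (95% confidence interval -0.81 to 0.87, adjusted p = 0.967). The adult mean was 4.80-fold above E15 (log2 2.19, SE 0.37, adjusted p = 0.00217).

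Slc1a5 encodes ASCT2, which exchanges glutamine and other neutral amino acids and is best known from dividing cells. It went the other way, with 3.41 and 5.75 TPM at E15, then 1.22 and 4.47 TPM at P3, then 0.866 and 0.0834 TPM in Adult replicates 1 and 2, and it was listed at 0 in Adult replicate 3. All adult libraries lay below all others, while the P3 libraries spanned part of the E15 range. Slc1a5 fell by 2.11 from E15 to the adult (limma SE 0.50, Benjamini-Hochberg adjusted p = 0.0114). This call was lost without E15 replicate 2 (log2 -1.80, adjusted p = 0.0951), and its size depended on the pseudocount, at -4.12 with 0.1 and -0.84 with 5. The differences of -0.65 from E15 to P3 (95% confidence interval -1.91 to 0.62, adjusted p = 0.522) and -1.46 from P3 to the adult (-2.62 to -0.31, adjusted p = 0.0721) did not pass, the latter passing without P3 replicate 1 (-2.11, adjusted p = 0.0494).

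Glul encodes glutamine synthetase, the enzyme of astrocytes that makes glutamine from glutamate and ammonia. The libraries of each stage lay close together, at 37.5 and 38.9 TPM at E15, then 211.9 and 193.3 TPM at P3, then 703.0, 715.4 and 741.8 TPM in the adult, with no overlap. Both steps passed. The mean rose 5.31-fold from E15 to P3 (38.2 ± 1.003 to 203 ± 13.2 TPM, log2 2.38, limma SE 0.14, Benjamini-Hochberg adjusted p = 0.000106) and 3.55-fold from P3 to the adult (720 ± 19.9 TPM, log2 1.83, SE 0.13, adjusted p = 0.000179). The adult mean was 18.9-fold that of E15 (log2 4.20, SE 0.13, adjusted p = 1.58e-06). Of the 3323 exon bases of Glul, 93 are shared with Mir8114 on the same strand and 116 with Teddm2 on the opposite strand. The pseudogene Glns-ps1 is 96.8% identical to Glul over 1126 bases and was listed at 0.180 to 5.06 TPM, and how reads shared by the 2 were assigned is unknown.

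Glud1 encodes glutamate dehydrogenase, the mitochondrial enzyme that turns glutamate into alpha-ketoglutarate. It was at 42.6 and 33.7 TPM at E15, then 415.1 and 242.4 TPM at P3, then 423.8, 413.9 and 411.0 TPM in the adult. E15 lay apart, while P3 replicate 1 fell inside the adult range and P3 replicate 3 below it. The rise from E15 to P3 was 8.62-fold (log2 3.03, limma SE 0.25, Benjamini-Hochberg adjusted p = 0.000424). Between P3 and the adult the log2 difference was 0.39 (95% confidence interval -0.13 to 0.91, adjusted p = 0.261). That difference was 0.78 and passed without P3 replicate 1 (adjusted p = 0.0359). The adult mean stood 10.9-fold above E15 (log2 3.42, SE 0.23, adjusted p = 2.53e-05). The pseudogene Glud-ps is 97.6% identical to Glud1 over 656 bases and reached at most 1.76 TPM, with the same uncertainty.

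**Figure D2:**
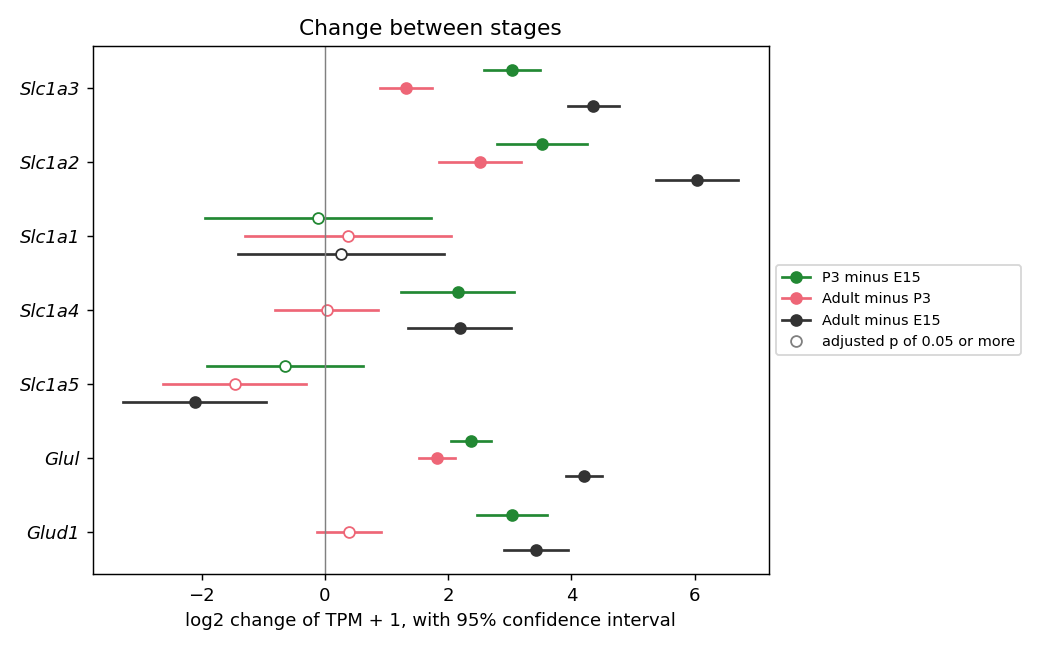
Log2 change of TPM + 1 of each gene between each pair of stages, with the 95% confidence interval from limma. From P3 to the adult the intervals of Slc1a2, Slc1a3 and Glul lie above 0, while those of Slc1a1, Slc1a4 and Glud1 include 0. That of Slc1a5 lies below 0, with no call after adjustment.

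Counted together, 5 of the 7 genes rose and 0 fell from E15 to P3, against 5.56% of all genes tested that rose and 1.08% that fell (limma; 5 and 0 members at an unadjusted p under 0.05). From P3 to the adult 3 rose and 0 fell, against 8.39% and 13.8% (limma; 3 and 1 at an unadjusted p under 0.05). Without P3 replicate 1, 5 members passed in this comparison, Glud1 and Slc1a5 being added. From E15 to the adult 5 rose and 1 fell, against 15.4% and 24.7%. Over any stage 6 of 7 passed the limma F test, all but Slc1a1, against 37.4% of all genes. Slc1a2, Slc1a3 and Glul, 3 of 7, had every E15 library below every P3 library and every P3 library below every adult library, a pattern that 7.89% of all genes tested showed. The median log2 change of the 7 genes was 2.38, 0.39 and 3.42 in the 3 comparisons, and that of all genes tested was -0.15, -0.13 and -0.30. With median-of-ratios scaling, which moved the medians of all genes to -0.0042, -0.028 and -0.049, every member call kept its direction and stayed past the threshold.

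The order of the members shifted with stage. At E15 Slc1a3 stood clear above Glud1 and Glul, whose libraries overlapped, and these stood above Slc1a4 and Slc1a2, which also overlapped, with Slc1a5 and Slc1a1 below. At P3 Glud1 was again below Slc1a3, at 242.4 and 415.1 TPM, and Glul and Slc1a2 overlapped beneath it. In the adult the order was Slc1a3, Slc1a2, Glul, Glud1, Slc1a4 with no overlap between neighbours, while Slc1a1 and Slc1a5 overlapped at the bottom.

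Ratios of TPM within a library set the transcript levels of 2 genes against each other. All 4 ratios examined differed among the stages (exact permutation test over libraries, 210 assignments, smallest possible p = 0.0095, Benjamini-Hochberg over 4 ratios). The size of a ratio rests on the transcript lengths behind TPM, and the sources used here do not give the annotation. Slc1a3 exceeded Slc1a2 by 22.4- and 11.96-fold at E15, then 9.99- and 12.1-fold at P3, then 4.62-, 4.65- and 5.05-fold in the adult. E15 and P3 overlapped and the adult stood apart, and the mean log2 ratio of Slc1a2 to Slc1a3 went from -3.93 at E15 to -3.45 at P3 and -2.25 in the adult (exact permutation p = 0.01905, adjusted p = 0.0254). Of the summed TPM of the 5 glutamate transporter genes Slc1a1, Slc1a2, Slc1a3, Slc1a6 and Slc1a7, Slc1a3 made up 94.0% and 91.0% at E15, then 90.8% and 92.2% at P3, then 82.1%, 82.3% and 83.4% in the adult. Slc1a2 made up 4.19% and 7.61%, then 9.09% and 7.62%, then 17.8%, 17.7% and 16.5%. The sum itself was 248.7 and 219.7 TPM at E15, then 2471 and 1539 TPM at P3, then 5570, 5467 and 5133 TPM in the adult, the last being 0.514% to 0.558% of a library.

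The proportions of the neuronal and of the neutral amino acid transporters differed as well, which follows from the changes of the single genes given above. From E15 to the adult the log2 ratio of Slc1a1 to Slc1a2 changed by -5.77, with Slc1a2 up by 6.04. Slc1a1 changed by 0.26 with no call, and Slc1a5 was at most 0.866 TPM in the adult. The log2 ratio of Slc1a1 to Slc1a2 was -2.47 at E15, -6.10 at P3 and -8.25 in the adult on average (exact permutation p = 0.01905, adjusted p = 0.0254). That of Slc1a4 to Slc1a5 was 1.52, 4.33 and 5.82 (exact permutation p = 0.0381, adjusted p = 0.0381), and was not past the threshold with a pseudocount of 5. Slc1a4 made up 84.4% and 66.9% of the summed TPM of this pair at E15, then 98.8% and 91.5% at P3, then at least 98.97% in the adult.

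The 2 enzymes that use glutamate changed order between P3 and the adult. Glul over Glud1 was 0.881 and 1.15 at E15, then 0.511 and 0.797 at P3, then 1.66, 1.73 and 1.81 in the adult, so the 3 stages did not overlap. The mean log2 ratios were 0.01, -0.65 and 0.79 (exact permutation p = 0.0095, the smallest this design allows, adjusted p = 0.0254). All 4 ratio calls were lost without E15 replicate 1 (lowest adjusted p = 0.0667) and without any 1 adult library, where the exact test cannot go below 0.067. All kept their direction. Those of Slc1a4 to Slc1a5 and of Slc1a2 to Slc1a3 were also lost without E15 replicate 2 and without P3 replicate 1, respectively.

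**Figure D3:**
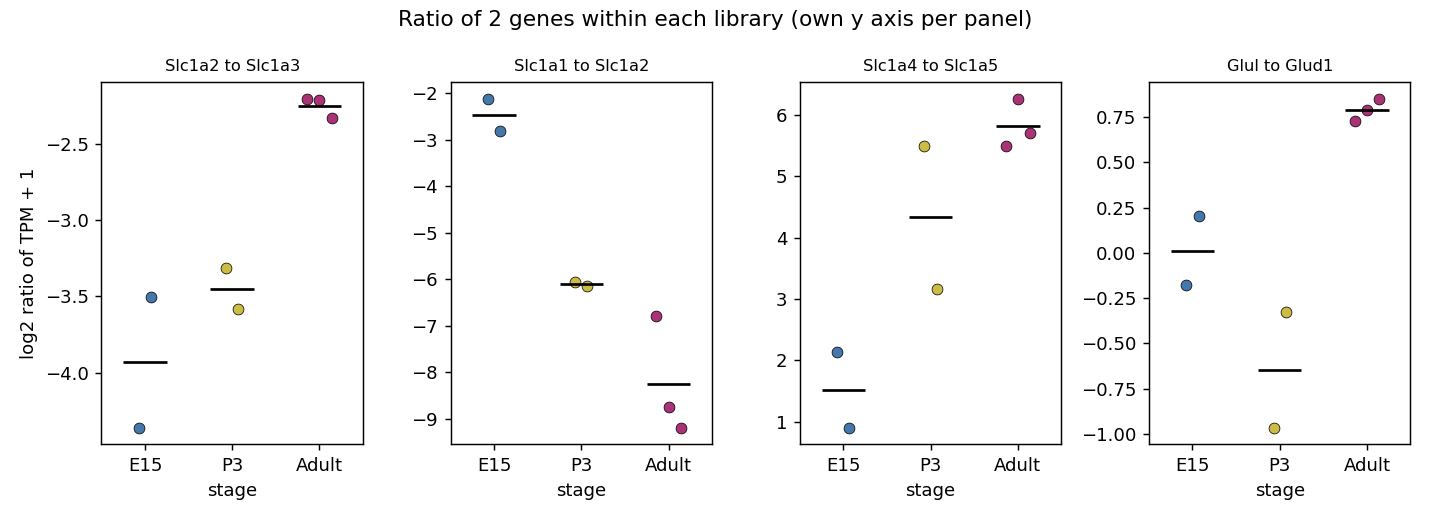
Log2 ratio of TPM + 1 of 2 genes within each library, by stage, with a separate y axis per panel. The ratio of Slc1a2 to Slc1a3 is higher in the 3 adult libraries than in all others, and the ratio of Glul to Glud1 is lowest at P3 and highest in the adult.

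The P3 libraries differed from each other in the same direction for most members. On the log2 scale of TPM + 1, replicate 3 minus replicate 1 was between -1.02 (Slc1a4) and -0.13 (Glul) for 6 members and 1.30 for Slc1a5. Replicate 3 also held a larger sum of neuron marker transcripts (579 against 90.7 TPM, 8 genes, none at 0 in all libraries) and fewer astrocyte marker transcripts (2925 against 4342 TPM). Most of the neuron sum in replicate 3 was Neurod6 and Tubb3 (242.3 and 209.4 TPM). Stmn2 and Syt1 were lower in replicate 3 (11.7 against 21.0 and 0.397 against 1.86 TPM). The part of neuron and astrocyte transcripts in the differences was not tested. The rises from E15 to P3 of Slc1a2, Slc1a3, Glul and Glud1 and the rises from P3 to the adult of Slc1a2, Slc1a3 and Glul passed with either P3 library left out.

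Among 43 other genes of glutamate and glutamine handling, in 6 lists, 40 were tested. From E15 to P3, 8 of the 40 rose and 0 fell, against 5.56% and 1.08% of all genes tested (limma; 13 and 2 at an unadjusted p under 0.05). From P3 to the adult 11 rose and 7 fell, against 8.39% and 13.8% of all genes tested. From E15 to the adult 19 rose and 11 fell, against 15.4% and 24.7%. The falls from P3 and from E15 to the adult were near the shares of all genes. The medians over the 40 were 0.24, 0.14 and 0.60 on the log2 scale. The count from P3 to the adult depended on P3 replicate 3, without which 6 rose and 1 fell, and 6 fell from E15 to the adult without E15 replicate 1. From E15 to P3, 5 rather than 8 rose with either E15 library or P3 replicate 1 left out, and with E15 and P3 fitted alone.

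**Figure D4:**
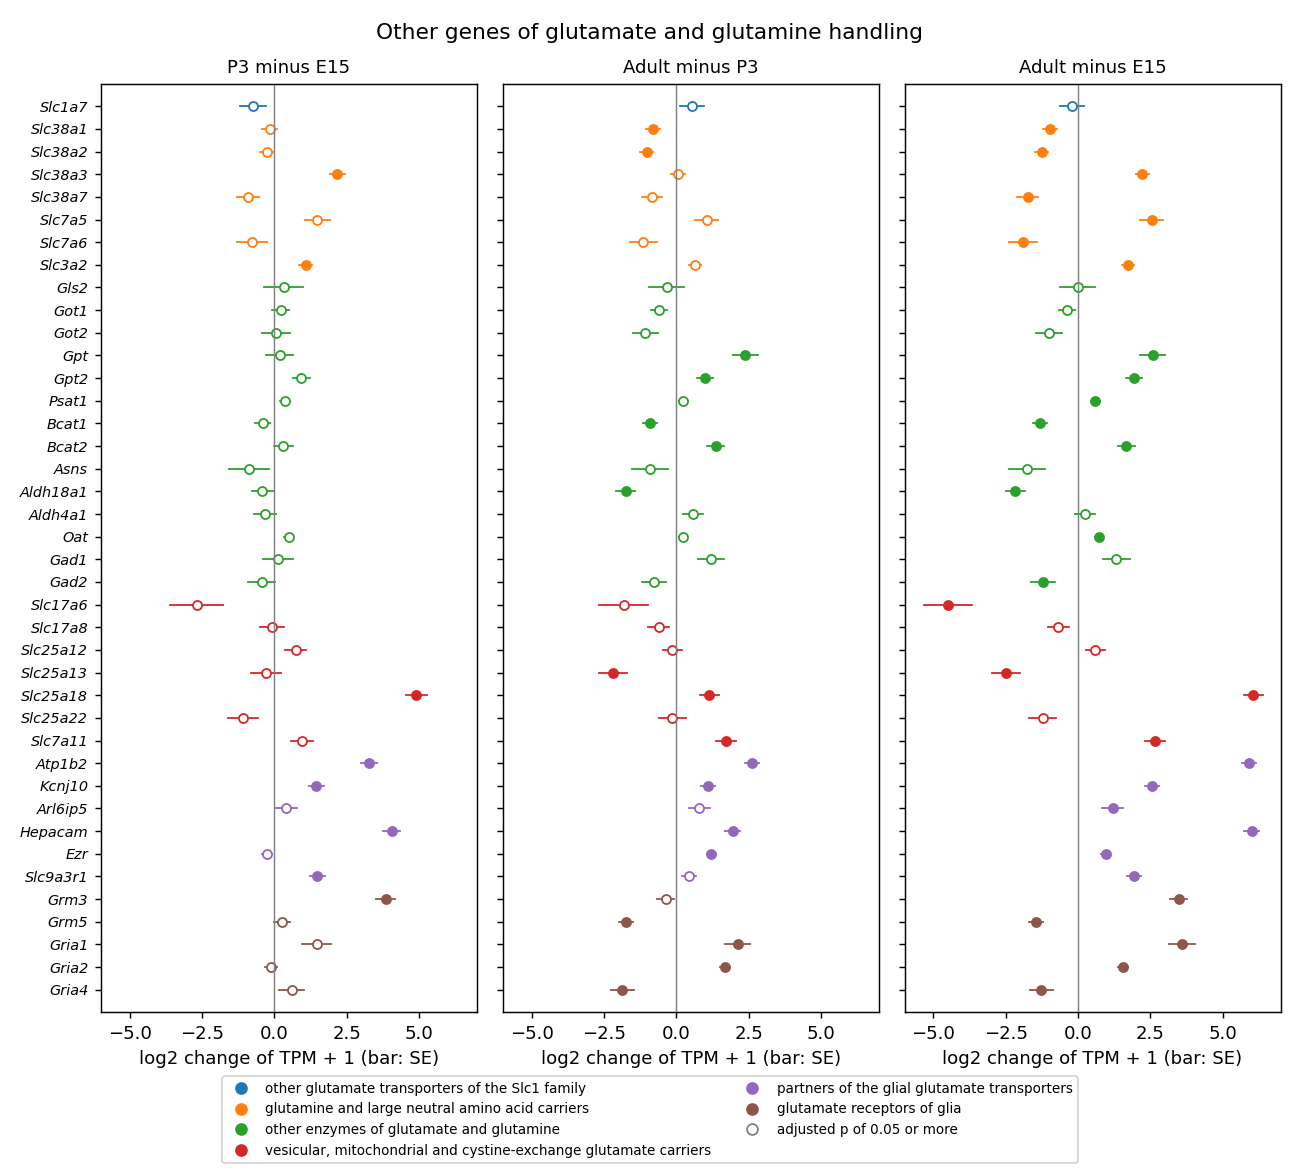
Log2 change of TPM + 1, with SE, of the other genes of glutamate and glutamine handling in the 3 comparisons, 1 point per gene. The partners of the glial transporters lie to the right in the comparison of the adult with E15, while the carriers and enzymes lie on both sides of 0.

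Partners of Slc1a glutamate transporters, a list named for the glial ones, rose over the same interval. The list holds a subunit of the sodium pump, which keeps up the gradient on which uptake runs, the potassium channel Kcnj10, the adhesion protein Hepacam and proteins that anchor or bind Slc1a transporters. All 6 tested genes rose from E15 to the adult and 0 fell (median log2 2.24), against 15.4% and 24.7% of all genes tested. At each of the steps to P3 and to the adult 4 rose, against 5.56% and 8.39%. Atp1b2, the beta subunit of the pump found on astrocytes, went from 5.49 and 5.29 to 82.9 and 45.0 and to 376, 370 and 404 TPM (log2 3.28 and 2.63). Hepacam went from 0.804 and 1.28 to 39.7 and 26.8 and to 147, 119 and 122 TPM (log2 4.05 and 1.95). Kcnj10 rose by 1.45 and by 1.10, but leaving out either E15 library or P3 replicate 1 ended the first call (limma, Benjamini-Hochberg adjusted p = 0.0981, 0.0959 and 0.160) and leaving out P3 replicate 3 the second (0.118). Slc9a3r1, which encodes the scaffold protein NHERF1, was at 30.4 and 29.7 TPM at E15, then 110.9 and 65.7 TPM at P3, then 125, 102 and 126 TPM in the adult, and rose by 1.93 from E15 to the adult (limma SE 0.24, Benjamini-Hochberg adjusted p = 0.000509). Its rise of 1.48 from E15 to P3 was lost in 5 of 16 alternatives, among them without either E15 library and without P3 replicate 1. In each of those 3 fits, 2 rather than 4 partners rose from E15 to P3. The rise of Arl6ip5 from E15 to the adult (log2 1.20), named after its values were seen, was lost in 4 of 16 alternatives, among them without E15 replicate 2 and without Adult replicate 3, which left 5 of the 6 partners called.

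Glutamine and large neutral amino acid carriers divided. From E15 to the adult 3 of 7 rose and 4 fell (median log2 -0.97), against 15.4% and 24.7% of all genes tested. The shares of all genes that rose and fell were 5.56% and 1.08% from E15 to P3, and 8.39% and 13.8% from P3 to the adult. Slc38a3, the SNAT3 carrier through which astrocytes release glutamine, was at 14.8 and 15.4 TPM at E15, then 89.6 and 57.3 TPM at P3, then 86.7, 69.1 and 68.7 TPM in the adult. Like Glud1 it rose at the first step (log2 2.18, limma SE 0.26, Benjamini-Hochberg adjusted p = 0.00232) and had no call at the second (log2 0.05, adjusted p = 0.906). Slc7a5, the light chain of the large neutral amino acid exchanger, rose from 1.08 and 2.05 TPM at E15 to 19.0, 10.4 and 12.8 TPM in the adult (log2 2.54). Slc38a7, a lysosomal glutamine carrier, fell by 1.75, and Slc7a6 fell by 1.90, the latter call being lost without E15 replicate 1 (adjusted p = 0.122). Slc38a2, the SNAT2 carrier for glutamine uptake, named after its values were seen, was at 72.0 and 72.8 TPM at E15 and 36.2, 26.4 and 27.1 TPM in the adult (log2 -1.26, SE 0.22, adjusted p = 0.00279). From E15 to P3, 2 of the 7 rose (Slc38a3 and Slc3a2, the heavy chain that pairs with Slc7a5, the latter not without P3 replicate 1 or either E15 library), and from P3 to the adult 2 fell (Slc38a1, a related glutamine carrier, and Slc38a2, neither without P3 replicate 3). For Slc38a1 this fall did not pass in 12 of 16 alternatives, median-of-ratios scaling and the fits without either E15 library among them, and its fall from E15 to the adult did not pass in 4 of 16. Without E15 replicate 1, 2 rather than 4 fell from E15 to the adult.

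Among 14 other enzymes of glutamate and glutamine, 0 passed from E15 to P3 (limma, with 2 higher and 0 lower at an unadjusted p under 0.05). From P3 to the adult 3 rose and 2 fell, against 8.39% and 13.8% of all genes tested. From E15 to the adult 5 rose and 3 fell, against 15.4% and 24.7%. The falls were near the shares of all genes. The alanine aminotransferases, which move amino groups between glutamate and alanine, were among those that rose. Gpt was at 6.05 and 2.11 TPM at E15, then 4.01 and 4.70 TPM at P3, then 33.4, 31.3 and 18.7 TPM in the adult (Adult minus P3 log2 2.39, limma SE 0.42, Benjamini-Hochberg adjusted p = 0.00605). Gpt2 rose by 1.93 from E15 to the adult (adjusted p = 0.000864), and its rise of 0.9991 from P3 was lost in 7 of 16 alternatives, among them without P3 replicate 3 (0.75, adjusted p = 0.217). Bcat2, the mitochondrial branched-chain aminotransferase, rose by 1.67 from E15 to the adult and by 1.36 from P3, the latter not without P3 replicate 1 (adjusted p = 0.0975). Aldh18a1, which starts proline synthesis from glutamate, was at 48.7 and 28.6 TPM at E15, then 22.9 and 33.4 TPM at P3, then 9.11, 7.72 and 6.02 TPM in the adult, and fell by 2.17 over the interval (SE 0.33, adjusted p = 0.00126). Without P3 replicate 3, 0 enzymes (limma) fell from P3 to the adult, and without either E15 library or without Adult replicate 3 it was 1. Without E15 replicate 2, 3 rather than 5 rose and 2 rather than 3 fell from E15 to the adult. Gad2, a glutamate decarboxylase named after its values were seen, was among the 3 that fell, and its call was lost in 10 of 15 alternatives, each fit without 1 E15 or adult library among them.

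Carriers of glutamate in vesicles, in mitochondria and in exchange for cystine also moved both ways. From E15 to the adult 2 of 7 rose and 2 fell, against 15.4% and 24.7% of all genes tested. The falls were near the share of all genes. Slc25a18, a mitochondrial glutamate carrier of astrocytes, was at 1.53 and 3.03 TPM at E15, then 138 and 65.2 TPM at P3, then 194, 219 and 223 TPM in the adult. Its rise of 4.91 from E15 to P3 (limma SE 0.37, Benjamini-Hochberg adjusted p = 0.000317) was above that of all 7 members, as a value and with no test of the difference, and its further rise of 1.15 was lost in 10 of 16 alternatives, with a value of 0.61 without P3 replicate 3. Slc7a11, the cystine-glutamate exchanger, rose by 2.66 from E15 to the adult (28.8 to 51.9 TPM in the adult against 5.14 and 5.92 TPM at E15). Slc17a6, the vesicular glutamate transporter of neurons, was at 90.9 and 87.2 TPM at E15, then 3.43 and 43.7 TPM at P3, then 1.53, 4.93 and 3.20 TPM in the adult, a fall of 4.50 from E15 to the adult (limma SE 0.83, Benjamini-Hochberg adjusted p = 0.00356). The P3 library with more Slc17a6 was replicate 3, which also held a larger sum of neuron marker transcripts, though Stmn2 and Syt1 were lower in it. Slc25a13, a mitochondrial aspartate-glutamate carrier, fell by 2.49, a call lost without E15 replicate 1 (adjusted p = 0.0504). From P3 to the adult 2 rose and 1 fell, and without P3 replicate 3 neither direction held a call (limma). The shares of all genes that rose and fell from P3 to the adult were 8.39% and 13.8%, so the count of falls was near its share. From E15 to P3, 1 rose (Slc25a18) and 0 fell, against 5.56% and 1.08% of all genes tested (limma; 2 and 1 at an unadjusted p under 0.05).

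Of 5 glutamate receptor genes of glia, 3 rose and 2 fell from E15 to the adult, against 15.4% and 24.7% of all genes tested. Grm3, the metabotropic receptor of astrocytes, was at 6.13 and 3.35 TPM at E15, then 95.4 and 65.1 TPM at P3, then 68.7, 59.4 and 55.3 TPM in the adult, rising by 3.84 to P3 (limma SE 0.31, Benjamini-Hochberg adjusted p = 0.000406). Grm5, the metabotropic receptor of immature astrocytes and of neurons, was at 38.9 and 36.3 TPM at E15, then 46.8 and 44.3 TPM at P3, then 16.9, 10.5 and 12.4 TPM in the adult, and fell by 1.73 between P3 and the adult (SE 0.25, adjusted p = 0.0026). The AMPA receptor gene Gria1 rose by 3.58 from E15 to the adult (0.617 and 1.33 to 17.2, 37.3 and 17.0 TPM, adjusted p = 0.000501). Gria4 was listed at 0 in Adult replicate 1 and was at 0.803 and 0.0235 TPM in the others, a fall of 1.27 from E15 that was lost in 8 of 15 alternatives, among them without Adult replicate 1 or 3 and without either E15 library. From P3 to the adult 2 rose (Gria1 and the AMPA receptor gene Gria2) and 2 fell (Grm5 and Gria4), with 1 and 1 without P3 replicate 3. The shares of all genes that rose and fell from P3 to the adult were 8.39% and 13.8%. The remaining glutamate transporter genes of the family stayed low. Slc1a7 was at 0.594 to 2.999 TPM with no call, and Slc1a6 reached at most 0.454 TPM and was not tested.

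Across the 7 libraries, Slc1a3 and Glul had the most similar profiles of any 2 members. Likeness was measured as the root mean square difference of mean-centred log2(TPM + 1) over the 7 libraries, among 13893 genes, and is a description of shared stage and library differences. It was 0.31 for Slc1a3 and Glul, 0.46 for Slc1a3 and Glud1, and 0.77 for Slc1a2 and Slc1a3. The gene nearest to Slc1a2 was Lsamp, which encodes a neural adhesion protein (0.16; 8.66 and 13.8, 138 and 79.1, and 726, 759 and 571 TPM), followed by Atp1b2 (0.23) and the related adhesion gene Ntm (0.24). Nearest to Slc1a3 were Gchfr, a regulator of GTP cyclohydrolase (0.14), the tetraspanin gene Tspan7 (0.14) and Tril (0.16). Gchfr was listed at 0.280 and 0 TPM at E15 and was at 22.8, 20.7 and 20.0 TPM in the adult. At such low values the pseudocount of 1 shrinks the change, so its likeness to Slc1a3 depends on that setting. Nearest to Glul were Mapk4 (0.18), the oxysterol hydroxylase gene Cyp7b1 (0.20) and the sphingosine phosphate receptor gene S1pr1 (0.23). Glud1 was nearest to Ptprz1, the receptor phosphatase of radial glia and astrocytes (0.12; 42.4 and 35.1, 441 and 277, and 528, 488 and 404 TPM), and to the small heat shock protein gene Hspb8 (0.12) and Abca6 (0.18). Abca6 was at 0.0890 and 0.0705 TPM at E15, with the same limit as Gchfr. Slc1a4 lay nearest to Pros1 (0.17), Slc1a5 to AC155256.1 (0.20) and Slc1a1 to Acot4 (0.29), against a median over all genes of 0.963 to 2.67 depending on the member. The same limit holds for Slc1a5, AC155256.1, Slc1a1 and Acot4, which reached at most 5.75, 6.62, 7.93 and 7.36 TPM. It also holds for Mapk4, at 1.42 and 1.16 TPM at E15.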

How the data were processed

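Per the labels' protocols, RNA came from an RNeasy mini kit with quality control on a Bioanalyser. The submitters' processing notes name bcl2fastq, Bowtie and build mm9 without versions. The sources used here do not give the quantifier, its annotation or its strand setting. The authors deposited TPM values, 1 column per library and 24978 rows. Library values sum to between 998450 and 999193, and depth is unknown, so no counting interval was possible and an exact 0 is given only as listed. The 15931 genes that reached 1 TPM in 2 or more libraries were fitted as log2(TPM + 1) in limma 3.58.1 (R 4.3.3) with a mean-variance trend, all 7 libraries and stage as the only term (4 residual degrees of freedom, prior 4.27), with Benjamini-Hochberg adjustment over all genes. Ratios were tested by exact permutation over libraries. Promoter windows came from RefSeq on GRCm38.p6 and exon overlap and similar transcripts from GENCODE (blastn 2.17.0, at least 90% identity over 200 bases); the files use mm9, so no coordinate was carried over.

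The members, the 6 pathway lists, the 11 marker lists and the motifs were chosen with earlier results of these data known. In each pathway list the named genes were those past the threshold in any comparison, up to 4 by size of change, or up to 2 with the highest mean where none passed. Slc38a1, Slc38a2, Slc3a2, Gria2, Arl6ip5 and Gad2 were named outside this rule, after values were seen. Some genes, and a planned ratio, are not reported here and were left out of the lists and of the adjustment over ratios. Summed TPM of the marker lists not given in the report was 1.07 to 42.1 for 5 oligodendrocyte progenitor markers, 89.8 to 188 for 6 endothelial, 7.10 to 95.7 for 5 mural cell and 53.6 to 364 for 3 intermediate progenitor markers. Pecam1 made up most of the endothelial sum in every library (87.7 to 185.8 TPM), while Cldn5, Flt1, Cdh5 and Tek were below 1 TPM throughout. Rgs5 made up most of the mural cell sum at E15 and P3. Of the oligodendrocyte progenitor markers, Pdgfra and Sox10 were below 1 TPM in every library.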

Additional observations from a re-analysis of the deposited data

How the results depend on the processing

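Alternatives were pseudocounts of 0.1 and 5, median-of-ratios scaling, a filter at a mean of 5 TPM, no filter, limma without the trend, a replicate block, fits on 2 stages alone, and leaving out each library or Adult replicates 1 and 3 together. Those on the pathway genes were added after seeing the data. Of 14 member calls, 12 were kept in all of their alternatives, the exceptions being Slc1a4 from E15 to P3 and Slc1a5 from E15 to the adult, and of 56 pathway calls 33 were kept. Slc1a1 and Slc1a5 did not pass the filter at a mean of 5 TPM. Members called from P3 to the adult numbered 3 to 5 over the fits without 1 library. A stage left with 1 library was assumed to vary like the others.

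Directions turned in values with no call. The Slc1a1 change from E15 to P3 was 0.00035 with median-of-ratios scaling, 0.26 with the replicate block and up to 0.40 without 1 library (lowest -0.61). Without 1 library, Slc1a1 ranged from -0.40 to 0.92 from P3 to the adult and from -0.51 to 0.81 from E15 to the adult, Slc1a4 from -0.48 to 0.54 from P3 to the adult, and Slc1a5 from -1.30 to 0.0036 from E15 to P3. With Adult replicates 1 and 3 left out, Slc1a1 was at -0.079 against P3 and -0.19 against E15.

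Pathway genes that fell from P3 to the adult numbered 4 with the replicate block, 4 with no filter, and 1 to 8 without 1 library, where 6 to 11 rose. Those that rose from E15 to P3 numbered 5 in the fit of 2 stages alone and 5 to 8 without 1 library. Those that fell numbered 6 to 12 from E15 to the adult and 0 to 1 from E15 to P3 without 1 library.

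The ratio of Slc1a4 to Slc1a5 changed by 2.78 with a pseudocount of 5 (exact permutation, adjusted p = 0.0571). Without Adult replicates 1 and 3 the 4 ratios changed by 1.72, -6.28, 4.74 and 0.78, with 0.067 as the smallest exact p. Without 1 library, the change from E15 to the adult was 1.25 to 2.11 for Slc1a2 to Slc1a3, -6.50 to -5.30 for Slc1a1 to Slc1a2, 3.68 to 4.92 for Slc1a4 to Slc1a5 and 0.59 to 0.97 for Glul to Glud1. Fewer libraries leave fewer assignments for the exact test, and a larger pseudocount shrinks low values by construction; other causes were not tested.

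The deviations of same-numbered libraries had correlations of -0.023 to 0.021. Within E15 and within P3 the deviations mirror each other, so the correlations between these stages were all 0.021 or -0.021. Such values cannot show whether the replicate numbers pair samples, and the labels leave this open. With the replicate block 5, 3 and 6 members passed in the 3 comparisons, as without it, 5 against 6 by the F test, and the Slc1a4 change from P3 to the adult was -0.0080. Depth is unknown, and genes at 0 made up 19% to 31.43% of a library.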
